A study of Mus musculus with 6 samples.

Results

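The 10 genes described here encode Prmt5, the enzyme targeted in the study, its partner proteins Wdr77, Riok1, Clns1a and Coprs, and 5 other protein arginine methyltransferases, Prmt1, Prmt3, Carm1, Prmt7 and Prmt9. They were picked by gene symbol and are 10 of the 55359 genes in the deposited table. Each symbol stood on a single row. Each of the 6 libraries was made from poly(A) RNA of the whole lung of a C57 mouse embryo at E18.5, close to birth. In 3 libraries the genotype label was wild type and in 3 it was Prmt5 knockdown. The series text speaks of a knockout by Dermo1, another name of Twist2, that is limited to the lung mesenchyme, and the labels name no Cre line or floxed allele. A whole-lung library also holds RNA of epithelium, endothelium and blood cells, and Prmt5 RNA was not measured by cell type. The labels do not say whether embryos shared a litter, so p-values measure only the spread between these samples, which may be technical in part. Since Prmt5 RNA itself did not separate the groups, the libraries labelled Prmt5 knockdown are called labelled knockdown.

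Protein arginine methyltransferases move methyl groups from S-adenosylmethionine to arginine side chains. Type I enzymes (Prmt1, Prmt3, Carm1) make asymmetric dimethylarginine, type II enzymes (Prmt5, Prmt9) make symmetric dimethylarginine, and Prmt7 makes monomethylarginine only. Prmt5 works in a complex with the WD-repeat protein Wdr77, also called MEP50. The adaptors Clns1a (pICln), Riok1 and Coprs bind Prmt5 and bring it different substrates, namely the Sm proteins of the spliceosome, the RNA-binding protein nucleolin and histones. In the embryonic lung, Prmt5 in epithelium and mesenchyme has been studied for its part in branching and survival of progenitor cells.

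Total counts assigned to genes ranged from 14383415 to 19262837 per library. By Xist and Ddx3y, 1 of 3 wild type and 2 of 3 embryos labelled knockdown were male. All 8 lung epithelial markers (Sftpc, Nkx2-1 and others) and all 8 mesenchymal markers (Tbx4, Foxf1 and others) passed the filter on low counts. Their summed levels were 12601 to 15640 and 2756 to 3299 CPM (depth-scaled counts, with the trimmed mean of M-values, TMM). The epithelial sum is carried by Sftpc, at 7911 to 9810 CPM in wild type libraries and 8576 to 10497 CPM in those labelled knockdown. The mesenchymal sum is carried by Col1a1, at 1097 to 1322 CPM in wild type libraries and 1345 to 1831 CPM in those labelled knockdown. Of the 8 mesenchymal markers 5 (Tbx4, Foxf1, Wnt2, Pdgfra and Pdgfrb) were below every wild type library in all libraries labelled knockdown. This pattern was met in 12.4% of all genes. The log2 fold changes of these 5 ran from -0.64 to -0.33. The list's median was -0.36 (edgeR, 0 of 8 past an adjusted p of 0.05). Col1a1 went the other way and was above every wild type library in all libraries labelled knockdown, against 10.8% of all genes. Of 12 heart muscle markers 10 were higher without overlap in libraries labelled knockdown, against 10.8% of all genes. In edgeR 0 of the 12 passed an adjusted p of 0.05. The 12 heart muscle markers summed to 502, 617 and 2909 CPM in wild type libraries, against 4224, 11417 and 3293 CPM in those labelled knockdown, and none was at 0. The 5 endothelial markers summed to 2111 to 2379 CPM in wild type libraries and 1403 to 1806 CPM in those labelled knockdown. Of these 5 markers 0 passed an adjusted p of 0.05 in edgeR. Proliferation markers overlapped, at 556 to 794 and 411 to 781 CPM.

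All 10 genes were expressed in every library, with 78 to 1510 counts each, and all 10 passed the filter on low counts. Compared per length, as FPKM (depth-scaled counts per kilobase of the exonic length in the table), Prmt1 was the most abundant member at 19.9 ± 1.81 FPKM (SD, n = 6). Carm1 followed at 14.5 ± 0.981, Prmt5 at 11.6 ± 0.780, Clns1a at 11.1 ± 0.970 and Wdr77 at 7.56 ± 0.679 FPKM. Riok1 had 4.18 ± 0.359, Prmt7 3.92 ± 0.273, Prmt9 3.66 ± 0.434, Prmt3 2.95 ± 0.358 and Coprs 2.32 ± 0.214 FPKM. The median of the 17728 genes tested was 5.10 FPKM. Prmt1 lay above 84.9% of these genes, Prmt5 above 72.6% and Coprs above 31.4%.

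Several neighbours in this order did not differ beyond their spread. Prmt5 was above Clns1a in 4 of 6 libraries, Riok1 above Prmt7 in 4 of 6, Prmt7 above Prmt9 in 5 of 6 and Prmt3 above Coprs in 5 of 6, and their ranges overlapped. The ranges of Prmt1, Carm1 and Prmt5 were separate, as were those of Clns1a, Wdr77 and Riok1. The order also depends on the length used. The exonic length in the table is 9459 bases for Riok1 and 2732 for Coprs, each 3.45 times the longest coding transcript in GENCODE M21, but 3958 bases for Prmt5, 1.47 times its longest. With transcript lengths Clns1a moved from the fourth to the second place, at 28.4 ± 2.49 FPKM, and was above Prmt5 (17.1 ± 1.15 FPKM) in all libraries, since their ranges no longer met. Riok1 then had 14.4 ± 1.25 FPKM and was above Wdr77 (9.94 ± 0.894 FPKM) in 6 of 6 libraries, whereas with exonic lengths Wdr77 was above it in 6 of 6. Prmt1 ranked first and Carm1 above Prmt5 under both lengths.

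**Figure D1:**
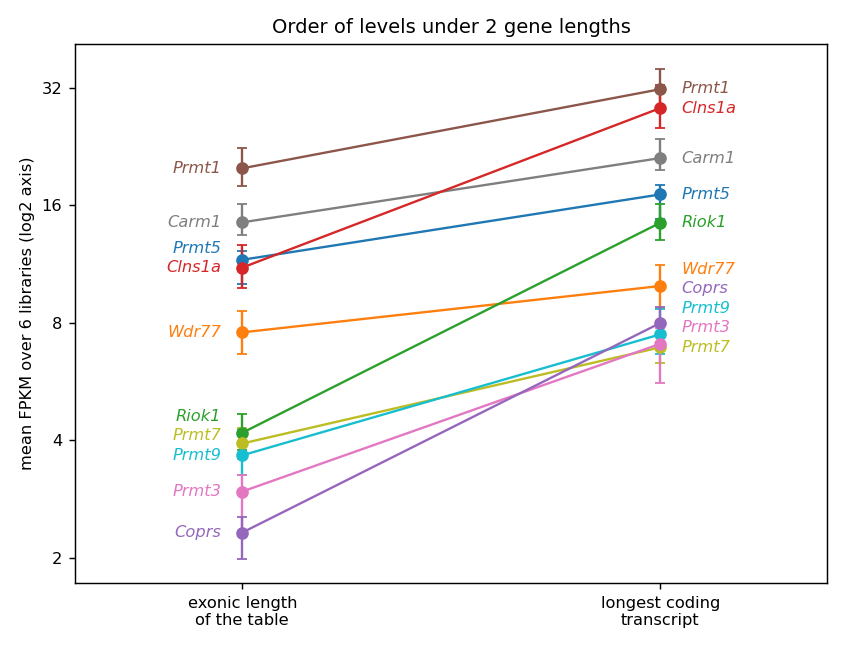
Mean FPKM of the 10 genes over 6 libraries (log2 axis; bars span the lowest to the highest library), with the exonic length of the table on the left and the longest coding transcript on the right. Lines join the same gene; Riok1, Clns1a and Coprs move up past other members on the right, and Prmt1 is highest on both sides.

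Of the 10 members 8 had an entry in the RefSeq promoter table (build GRCm38.p6), from which the 250 bases before each start site were read; Coprs and Carm1 had none. These windows held 12 to 35 CG pairs with a median of 15.5, against 6 over all 32851 promoters, and none of the 8 had a TATA box (TATAAA, in 12.4% of all promoters). The promoters of 3 members are shown. Those of Prmt5 and Wdr77 are given because their products form the core complex. Riok1 was the only member with an unadjusted edgeR p under 0.05. Capitals mark matches on either strand, and none of the motifs searched contains another.
Prmt5 (chr14:54517471-54517720, minus strand): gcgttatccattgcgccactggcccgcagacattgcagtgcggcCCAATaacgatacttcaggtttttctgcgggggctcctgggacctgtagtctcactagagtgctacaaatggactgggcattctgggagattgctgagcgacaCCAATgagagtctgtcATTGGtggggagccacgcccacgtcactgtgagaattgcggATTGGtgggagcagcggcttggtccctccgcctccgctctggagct
Wdr77 (chr3:105959248-105959497, plus strand): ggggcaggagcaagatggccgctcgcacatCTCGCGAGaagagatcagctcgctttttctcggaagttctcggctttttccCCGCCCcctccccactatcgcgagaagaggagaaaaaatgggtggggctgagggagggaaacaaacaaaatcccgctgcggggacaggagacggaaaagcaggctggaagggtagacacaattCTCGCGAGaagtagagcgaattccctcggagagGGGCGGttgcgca
Riok1 (chr13:38036739-38036988, plus strand): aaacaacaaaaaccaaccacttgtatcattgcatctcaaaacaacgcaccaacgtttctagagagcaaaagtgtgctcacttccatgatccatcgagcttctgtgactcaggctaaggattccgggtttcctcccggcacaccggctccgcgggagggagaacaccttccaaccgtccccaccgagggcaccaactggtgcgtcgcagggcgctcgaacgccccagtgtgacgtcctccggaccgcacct

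The Prmt5 window held 4 matches to the CCAAT box (CCAAT), the motif of NF-Y, which was found in 3 of the 8 members and in 33.8% of all promoters. The Wdr77 window held 2 GC boxes (GGGCGG, motif of Sp and Klf factors; 4 of 8 members, 32.7% of all promoters) and 2 copies of CTCGCGAG, the core of the element bound by the factor BANP. That element was searched for after the sequences had been read; it was in 1 of 8 members and in 0.761% of all promoters. The E-box CACGTG was in the windows of Clns1a, Prmt1 and Prmt3 and in 6.02% of all promoters. The ETS core CCGGAAG was in that of Clns1a (6.91% of all promoters), and the Nrf1 core GCGCATGC in 0 of 8 (2.26% of all promoters). The Riok1 and Prmt9 windows held none of these motifs. Each share counts windows with any match, however many matches a window held. Such matches describe letters in the windows and do not show binding.

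The comparison of the groups asks whether RNA of Prmt5, of its partners or of the related enzymes differed between wild type lungs and lungs labelled Prmt5 knockdown. No member passed the test. In edgeR's quasi-likelihood test over 17728 genes, 0 of the 10 had a Benjamini-Hochberg adjusted p under 0.05, against 0.0338% of all genes tested. DESeq2 also called 0 of the 10, against 4.82% of all genes, and so did limma, against 0.0396% at a pseudocount of 1 and 0.0198% at 0.1. At an unadjusted p under 0.05 there was 1 member, Riok1, against 17.0% of all genes. The log2 fold changes ran from -0.23 to 0.24 with a median of -0.01, beside 0.01 over all genes tested, and 6 of 10 were negative. The 95% interval of each of the 10 lay within a 1.5-fold change in either direction. Groups did not overlap in CPM for 2 members, Riok1 and Prmt3, against 23.2% of all genes.

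**Figure D2:**
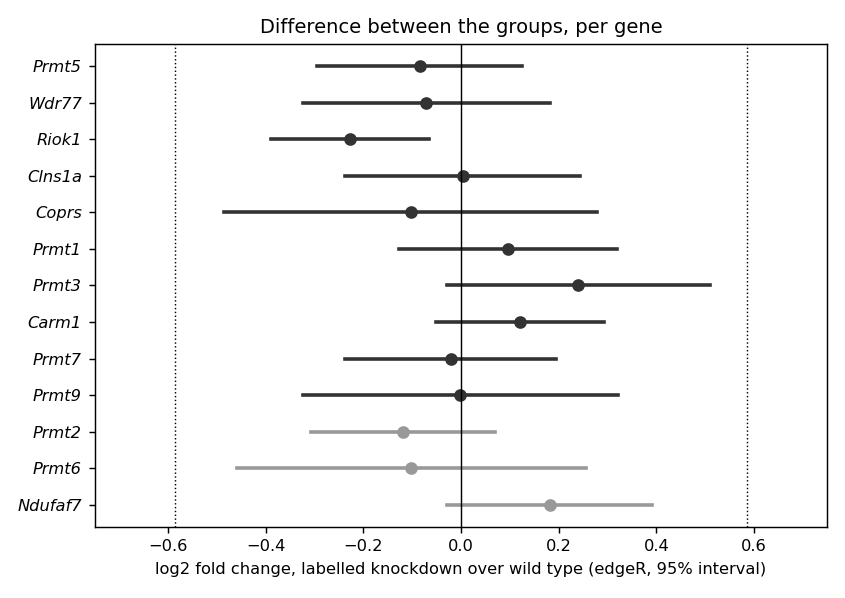
Log2 fold change of libraries labelled knockdown over wild type (edgeR, points) with 95% intervals (lines) for the 10 members (dark) and for Prmt2, Prmt6 and Ndufaf7 (grey). Dotted lines mark a 1.5-fold change; every interval of a member lies between them, and that of Riok1 is the only one of the 13 that does not reach 0.

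Prmt5 (ENSMUSG00000023110, chromosome 14, 54744644 to 54754982 in the table's coordinates, minus strand) stood at 46.7, 47.3 and 48.3 CPM in wild type libraries, against 39.6, 47.8 and 46.9 CPM in those labelled knockdown. Knockdown replicate 1 was the lowest of the 6, and replicates 2 and 3 lay within the wild type range. On the log2 scale the difference was -0.08 (standard error 0.09, edgeR adjusted p = 0.682). As a percentage the difference was -5.67%, with an interval from -18.4% to 9.1%. It was 0.0069 on the log2 scale when knockdown replicate 1 was left out. The spread among wild type libraries, a coefficient of variation of 1.64%, was below the 3.72% that counting alone gives at this depth. Among the libraries labelled knockdown it was 10.0%, above the 3.71% from counting. The counts are per gene, so loss of single exons was not analysed here. In whole-lung RNA fewer cells of a type and less RNA per cell cannot be told apart. Twist2, the gene named as driver, had 2.60, 2.05 and 3.08 CPM in wild type libraries, against 1.05, 0.920 and 1.49 CPM in those labelled knockdown (log2 fold change -1.14, edgeR adjusted p = 0.163).

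Wdr77 (ENSMUSG00000000561, chromosome 3, 105866685 to 105877353), which holds Prmt5 in its active complex, stood at 37.4, 39.2 and 36.3 CPM in wild type libraries, against 41.2, 34.5 and 31.8 CPM in those labelled knockdown. Knockdown replicate 1 was here the highest of the 6 libraries, while for Prmt5 it was the lowest. Its log2 fold change was -0.07 (interval -0.32 to 0.18, edgeR adjusted p = 0.794). Without knockdown replicate 3 it was 0.010. Within a library the log2 ratio of Prmt5 to Wdr77 FPKM was 0.61, 0.56 and 0.70 in wild type libraries, against 0.23, 0.76 and 0.85 in those labelled knockdown. The mean ratio was close in both groups, 0.63 ± 0.07 and 0.61 ± 0.33 (SD, n = 3 each), but replicate 1 lay below the rest and replicates 2 and 3 above all of wild type. Wdr77 shares 731 bases with Atp5pb on the opposite strand (2321 to 4536 counts), and the strand setting is not given in the sources used here. It also shares 10535 bases with Gm42890 on the same strand (11 to 17 counts), which a strand setting does not resolve. Its counts are uncertain to the extent of both overlaps. Prmt3 (Gm44822, 6389 bases) and Prmt9 (Gm45286, 1350 bases) have same-strand overlaps too.

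**Figure D3:**
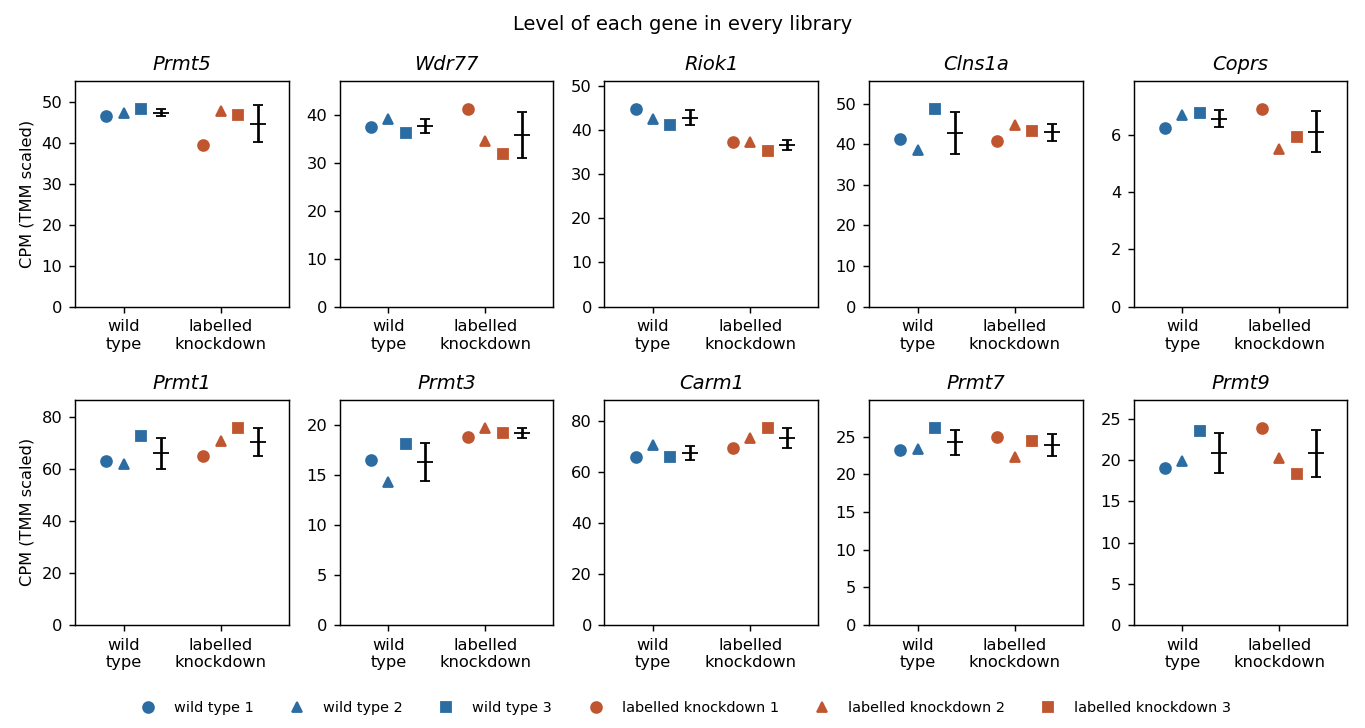
CPM of each member in every library (TMM scaled, axes from 0), wild type in blue and labelled knockdown in orange, with replicate 1 as circle, 2 as triangle and 3 as square; black bars give mean and SD of 3 libraries. The groups are separate for Riok1 (lower) and Prmt3 (higher) and overlap for the other 8 genes.

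Among the adaptors, only Riok1 had groups that did not overlap. Riok1 (ENSMUSG00000021428, chromosome 13, 38220971 to 38245409) encodes an atypical kinase of ribosome maturation that links Prmt5 to nucleolin. It stood at 44.7, 42.5 and 41.2 CPM in wild type libraries, against 37.2, 37.1 and 35.3 CPM in those labelled knockdown. Each library labelled knockdown was below each wild type library, a pattern met in 12.4% of all genes. On average this was 42.8 ± 1.75 against 36.6 ± 1.09 CPM (SD, n = 3 each), a difference of -14.6% (interval -23.6% to -4.50%). The spread among libraries labelled knockdown, a coefficient of variation of 2.98%, was below the 4.09% that counting alone gives. In wild type it was 4.10%, above the 3.92% from counting. The Riok1 log2 fold change of -0.23 (standard error 0.07) had an unadjusted edgeR p of 0.0124 and an adjusted p of 0.193. The sign was negative in all 15 other fits, and the adjusted p ran from 0.191 to 0.790 over them. With the heart muscle level as a covariate the log2 fold change was -0.18, at an unadjusted edgeR p of 0.168. In the same libraries 5 of 8 mesenchymal markers and 5 of 5 endothelial markers were lower without overlap, against 12.4% of all genes. Of the 8 mesenchymal markers 1, Col1a1, was higher without overlap, against 10.8% of all genes, and their summed levels overlapped. Of 12 heart muscle markers 10 were higher without overlap, against 10.8% of all genes. The median log2 fold changes of these lists were -0.36, -0.52 and 2.20, in that order. The part of these cell types in the Riok1 difference was not tested. Summed heart muscle markers were higher in every library labelled knockdown than in every wild type library. The fit with that level therefore cannot tell heart muscle and group apart.

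Clns1a (ENSMUSG00000025439, chromosome 7, 97345841 to 97370003), the adaptor for Sm proteins, stood at 41.2, 38.6 and 48.6 CPM in wild type libraries, against 40.7, 44.9 and 43.2 CPM in those labelled knockdown. The values labelled knockdown lay within the wild type range. Its log2 fold change was 0.0033 (interval -0.24 to 0.24, edgeR adjusted p = 0.992). Riok1 and Clns1a bind the same surface of Prmt5 in place of each other, so their ratio was taken within each library. On the log2 FPKM scale the ratio of Riok1 to Clns1a was -1.18, -1.15 and -1.53 in wild type libraries, against -1.42, -1.57 and -1.59 in those labelled knockdown. These averaged -1.29 ± 0.21 and -1.53 ± 0.09 (SD, n = 3 each), and the groups overlapped because of the high Clns1a value in wild type replicate 3. The size of this ratio, but not its difference between libraries, depends on the gene lengths. Coprs (ENSMUSG00000031458, chromosome 8, 13934794 to 13940281, minus strand), which brings Prmt5 to histones, had 78 to 116 counts per library. It stood at 6.24, 6.71 and 6.79 CPM in wild type libraries, against 6.92, 5.52 and 5.94 CPM in those labelled knockdown. Its interval was the widest on the lower side, -0.48 to 0.28 around a log2 fold change of -0.10 (edgeR adjusted p = 0.803). Counting alone gives a coefficient of variation of 9.98% for it in wild type.

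**Figure D4:**
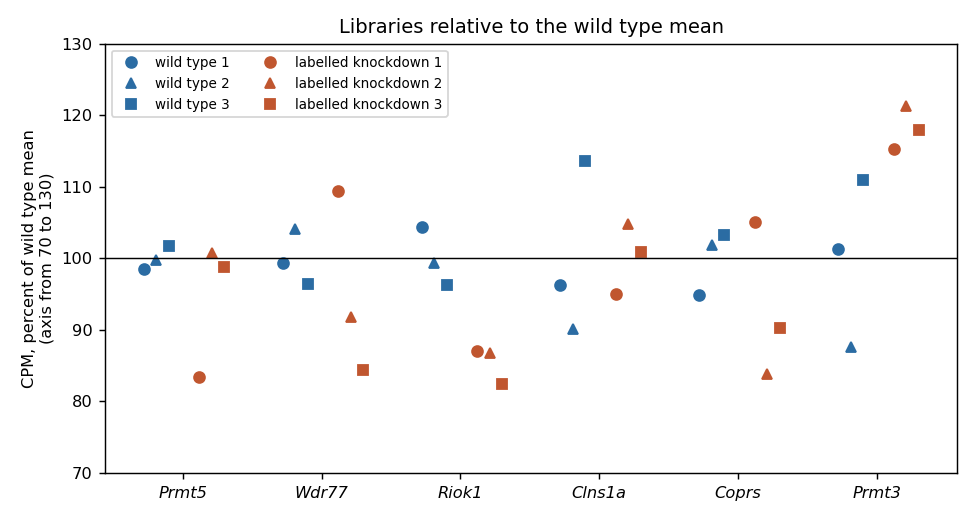
CPM of Prmt5, its 4 partners and Prmt3 in each library as a percentage of the gene's wild type mean (axis from 70 to 130), symbols as labelled. Knockdown replicate 1 is lowest for Prmt5 and highest for Wdr77 and Coprs, and Riok1 and Prmt3 show separate groups.

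Among the 10 members the type I enzymes Prmt1, Prmt3 and Carm1 had positive log2 fold changes, none past the threshold. Prmt3 (ENSMUSG00000030505, chromosome 7, 49428094 to 49508013), a cytosolic enzyme that methylates the ribosomal protein Rps2, stood at 16.5, 14.3 and 18.1 CPM in wild type libraries, against 18.8, 19.7 and 19.2 CPM in those labelled knockdown. Each library labelled knockdown was above each wild type library, a pattern met in 10.8% of all genes. On average this was 16.3 ± 1.91 against 19.2 ± 0.486 CPM (SD, n = 3 each), with a log2 fold change of 0.24, the largest of the 10 (standard error 0.11, interval -0.03 to 0.51). The unadjusted edgeR p was 0.0719 and the adjusted p 0.336. Among libraries labelled knockdown the coefficient of variation of Prmt3 was 2.53%, below the 5.64% from counting. In wild type it was 11.8%, above the 6.39% from counting. The log2 fold change was 0.15 without wild type replicate 2, the lowest library, and 0.086 with the heart muscle level as a covariate. The part of heart muscle RNA in it was not tested, since that level runs with the groups and cannot be told apart from them.

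Carm1 (ENSMUSG00000032185, chromosome 9, 21458190 to 21503919), a coactivator that methylates histone H3, stood at 66.0, 70.8 and 65.8 CPM in wild type libraries, against 69.3, 73.4 and 77.4 CPM in those labelled knockdown. The groups overlapped between wild type replicate 2 and knockdown replicate 1. The log2 fold change was 0.12 (interval -0.05 to 0.29, edgeR adjusted p = 0.451). Carm1 shares 3942 bases with Yipf2 on the opposite strand (232 to 395 counts), so part of its count is uncertain. Prmt1 (ENSMUSG00000109324, chromosome 7, 44625413 to 44635992, minus strand), the main source of asymmetric dimethylarginine in most cells, stood at 63.2, 62.2 and 72.9 CPM in wild type libraries, against 65.1, 70.8 and 76.0 CPM in those labelled knockdown. The log2 fold change was 0.10 (interval -0.13 to 0.32, edgeR adjusted p = 0.658), and -0.038 with the heart muscle level as a covariate. The log2 ratio of Prmt1 to Prmt5 FPKM was 0.65, 0.60 and 0.80 in wild type libraries, against 0.93, 0.78 and 0.91 in those labelled knockdown, so wild type replicate 3 and knockdown replicate 2 overlapped.

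The groups of the remaining enzymes overlapped and none passed the test. Prmt7 (ENSMUSG00000060098, chromosome 8, 106937568 to 106979426) stood at 23.2, 23.4 and 26.2 CPM in wild type libraries, against 25.0, 22.3 and 24.4 CPM in those labelled knockdown (log2 fold change -0.02, interval -0.24 to 0.20, edgeR adjusted p = 0.938). Prmt9 (ENSMUSG00000037134, chromosome 8, 78276026 to 78307967), the other type II enzyme, which methylates the splicing factor Sf3b2, stood at 19.0, 19.9 and 23.6 CPM in wild type libraries, against 24.0, 20.2 and 18.3 CPM in those labelled knockdown. Its spread within groups, 11.6% and 13.8% as coefficients of variation, exceeded the 5.63% and 5.44% from counting. The log2 fold change was -0.0017 (interval -0.32 to 0.32, edgeR adjusted p = 0.997). As a percentage the interval ran from -20.1% to 24.9%.

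Of the arginine methyltransferase genes outside the 10, Prmt2 stood at 38.1 ± 2.68 and 35.0 ± 1.43 CPM, Prmt6 at 14.2 ± 2.49 and 13.2 ± 0.193 CPM and the mitochondrial enzyme gene Ndufaf7 at 20.01 ± 0.971 and 22.7 ± 1.25 CPM in wild type libraries and in those labelled knockdown (SD, n = 3 each). Their log2 fold changes were -0.12, -0.10 and 0.18, and none passed the threshold (edgeR adjusted p = 0.501, 0.789 and 0.356). Prmt8, an enzyme of the nervous system, had 0 to 3 counts per library and was not tested. At these depths 3 counts equal 0.156 to 0.209 CPM.

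Further genes of the pathway were taken from 8 lists of 66 genes, of which 59 were tested, including the 3 just named. In edgeR 0 of the 59 had an adjusted p under 0.05, 10 had an unadjusted p under 0.05 (4 higher and 6 lower; 16.9% against 17.0% of all genes), and the median log2 fold change was 0.02. DESeq2 called 1 of the 59, Tob1, against 4.82% of all genes, and limma called 0 of the 55 it tested. With the heart muscle level as a covariate 0 of the 59 had an unadjusted p under 0.05 in edgeR, against 6.60% of all genes in that fit. This covariate runs with the groups, so the fit cannot tell heart muscle and group apart.

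In the methionine cycle, which supplies the methyl donor, 0 of 11 passed and the median was -0.05. Mtrr, which reactivates methionine synthase, stood at 34.6 ± 1.45 and 28.2 ± 2.64 CPM (edgeR adjusted p = 0.202) and the liver-type synthetase gene Mat1a at 9.01 ± 1.05 and 6.87 ± 0.784 CPM (edgeR adjusted p = 0.291), while Mat2a, the synthetase of most tissues, stood at 260.5 ± 3.94 and 252 ± 15.6 CPM (SD, n = 3 each). In the SMN complex, which loads methylated Sm proteins onto snRNAs, 0 of 10 passed and the median was -0.01. Its members with the smallest p were Gemin4, at 1.16 ± 0.163 and 0.484 ± 0.211 CPM with only 5 to 19 counts per library (edgeR adjusted p = 0.204), and Ddx20, at 31.02 ± 1.33 and 28.8 ± 0.637 CPM. Of the 7 Sm and Lsm substrates 0 passed and the median was -0.03. Lsm4 stood at 25.2 ± 1.80 and 31.2 ± 2.85 CPM (edgeR adjusted p = 0.211), and Lsm11 of the U7 particle at 19.8 ± 1.40 and 16.2 ± 0.681 CPM (edgeR adjusted p = 0.221).

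Tudor domain genes, whose products read methylated arginine, had a median of 0.07 and 0 of 8 passed. Tdrd7 stood at 40.6 ± 2.16 and 32.9 ± 4.23 CPM (edgeR adjusted p = 0.234) and Akap1 at 53.2 ± 2.55 and 65.6 ± 13.7 CPM. Akap1 had 81.3 CPM in knockdown replicate 2, where heart muscle markers were highest, and a link between them was not tested. Among 5 genes of the list of Prmt1 and Prmt7 partners 0 passed and the median was 0.01. Tob1, an antiproliferative relative of the Prmt1 partners Btg1 and Btg2, stood at 65.1 ± 4.43 and 81.9 ± 2.50 CPM (edgeR adjusted p = 0.144), and Hnrnpr at 186 ± 6.81 and 167 ± 7.85 CPM. Of 10 genes on the list named for glycine-arginine-rich substrates 0 passed, with a median of 0.03. No protein sequences were read, so whether each product holds such a stretch was not checked. The nucleolar gene Npm1 stood at 299.5 ± 4.25 and 353 ± 35.9 CPM, and Ncl, which encodes the Riok1-bound substrate nucleolin, at 381 ± 13.7 and 424 ± 12.6 CPM (edgeR adjusted p = 0.255 and 0.311).

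Of 5 tested genes of citrullination and methylarginine breakdown 0 passed and the median was 0.04. Ddah2, which degrades free asymmetric dimethylarginine, stood at 70.7, 69.9 and 70.7 CPM in wild type libraries, against 64.2, 53.8 and 57.8 CPM in those labelled knockdown (log2 fold change -0.27, edgeR adjusted p = 0.201). Each library labelled knockdown was below each wild type library, a pattern met in 12.4% of all genes. The wild type coefficient of variation of Ddah2 was 0.645%, below the 3.05% from counting alone. Padi2, a peptidylarginine deiminase gene, stood at 1.17, 1.48 and 1.92 CPM in wild type libraries, against 2.47, 3.40 and 29.6 CPM in those labelled knockdown (edgeR adjusted p = 0.221). Its log2 fold change of 2.96 was 0.94 without knockdown replicate 3.

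Genes whose CPM followed a member most closely over the 6 libraries were sought among 5190 named protein-coding genes with a mean of at least 10 FPKM. For Prmt5 these were Armcx2, Eif4g2 and Tob2, with Pearson's r of 0.994, 0.992 and 0.988 and Spearman's rho of 0.943, 0.943 and 0.714. Without the libraries farthest from the median, knockdown replicate 1 and wild type replicate 3, r was 0.942, 0.922 and 0.527, so the likeness of Tob2 rests on those libraries. All 3 had their lowest value in knockdown replicate 1. For Riok1 the closest were Wnt2, a mesenchymal Wnt ligand, Ager, a marker of alveolar type 1 cells, and the myosin gene Myo1c, with r of 0.999, 0.996 and 0.995 and rho of 1, 0.943 and 1. Without wild type replicate 1 and knockdown replicate 3, r was 1.000, 0.991 and 0.988. Wnt2 stood at 58.2, 50.3 and 46.0 CPM in wild type libraries, against 35.2, 34.7 and 31.0 CPM in those labelled knockdown, the same order as Riok1 over a wider span. With 6 libraries and 5190 candidates, 156 genes had an r over 0.95 with Riok1 and 21 with Prmt5, and the libraries share the difference between groups, so these are descriptions with no test.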

How the data were processed

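Poly(A) RNA of 6 whole lungs was sequenced in paired-end mode. HISAT2 2.0.1, HTSeq 0.6.1 and cutadapt 1.9.1 are listed, with no stated role, in the submitters' processing notes. Not given in the sources used here are the genome build, the annotation and the strand setting. The authors deposited 1 table of raw counts for each gene in each library. It also holds, per the file headers, FPKM and exonic lengths. Recomputing FPKM from counts and total counts matched the deposited FPKM within 0.005. Its coordinates matched GENCODE M21 (GRCm38) for 1494 of the 52083 genes found there, so they are printed as given. Each row names a gene.

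Counts were tested as deposited with edgeR 4.0.16 (R 4.3.3; filterByExpr, TMM, quasi-likelihood F test, group as the only term, Benjamini-Hochberg over 17728 genes, two-sided, called at an adjusted p under 0.05). The standard error was taken as the absolute log2 fold change over the square root of F. Exact permutation of 3 against 3 libraries reaches 0.1 at best and was not used. Floors of 3 counts cover counting error only. Alternatives used DESeq2 1.42.0 and limma 3.58.1 on log2(FPKM + 1) and log2(FPKM + 0.1) for genes with a mean of at least 1 FPKM, other scalings, covariates and left-out libraries. The likeness of genes was taken on log2(CPM + 0.5).

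Members, lists and tests were chosen with earlier results of these data known; transcript lengths and the BANP core were added later. Named are the 10 members, Twist2, Xist and Ddx3y, the up to 2 genes of each list with the smallest p, and the 3 genes most like Prmt5 and Riok1. Mat2a, Prmt8, single cell type markers, the overlapping genes and the other enzymes outside the 10 were named after their values were seen.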

Additional observations from a re-analysis of the deposited data

How the results depend on the processing

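No member passed an adjusted p of 0.05 in any of the 15 other fits. Riok1, Coprs, Prmt3 and Carm1 kept their sign in all of them and the other 6 did not. With the heart muscle level as a covariate the log2 fold change of Clns1a was -0.22 and that of Prmt1 -0.038. With totals that leave out erythroid, mitochondrial and heart muscle genes it was 0.0097 for Prmt7 and 0.028 for Prmt9. Prmt9 was also positive with upper quartile scaling (0.0057), limma at a pseudocount of 1 (0.0051) or 0.1 (0.0060) and embryo sex as a covariate (0.023). With 1 library left out Prmt5 ranged from -0.13 to 0.0069, Wdr77 from -0.17 to 0.010, Clns1a from -0.067 to 0.11, Prmt7 from -0.052 to 0.040 and Prmt9 from -0.10 to 0.098. The cause of these sign changes was not tested.

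Over all genes, 6 passed in the fit reported, 81 without a filter on low counts, 854 in DESeq2, 3 in limma at a pseudocount of 0.1, 1 with the heart muscle covariate and 0 with the sex covariate (edgeR; 2524 at an unadjusted p under 0.05). With 1 library left out the count ranged from 0 to 17 in edgeR. Leaving out wild type replicate 1, wild type replicate 2, knockdown replicate 1 or knockdown replicate 2 gave 0, with 1663 to 3287 genes at an unadjusted p under 0.05. Leaving out knockdown replicate 3 gave 1, and leaving out wild type replicate 3 gave 17. The scalings moved the median of all genes by at most 0.032 on the log2 scale. No paired analysis was possible because the labels number no replicates across groups. Coprs, with 78 to 116 counts, is the member that depth limits most.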
